A study of Mus musculus with 12 samples.

Results

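Imprinted genes are transcribed mainly from the chromosome copy inherited from 1 parent. Here 37 imprinted genes of 16 loci were followed in 3 kinds of cultured mouse cell, normal endometrium and the lines mECC and HPmECC of endometrial cancer. The genes were taken by name, without regard to their values, out of 55385 gene identifiers in the deposited tables. From the literature, 20 of them are known to be expressed from the paternal copy and 15 from the maternal copy. For Grb10 and Gnas the active copy depends on the promoter or tissue. Some genes of the other classes, Copg2 and Ube3a among them, are also known as imprinted only in certain tissues. The classes therefore do not say which copies are active in the cells studied here. Among the 37 genes, 32 had enough counts to be tested, within 15283 genes tested in all.

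Messenger RNA was sequenced from 12 libraries, 4 in each of 3 groups, all of the strain C57BL/6. The normal group was cultured directly from endometrium and carries the title code B6, mECC carries DM and HPmECC carries WT, codes that the titles do not explain. According to the series' design text, Myc is overexpressed in part of the lines, but the labels name neither the line nor any other allele, age or treatment. Each cancer group is a single line, and nothing in the labels ties the 4 libraries of a group to separate cultures, so p-values reflect variation among libraries that may be technical. Because C57BL/6 is inbred, the counts carry no information on which parental copy a transcript came from. A gene's total can therefore be given here, but not its imprint.

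In most imprinted loci DNA methylation is laid down on 1 parental copy in the egg or sperm and is kept through cell division. The mark decides which promoters, insulators or noncoding RNAs act on that copy, so neighbouring genes are often switched together or in opposite ways. Many imprinted genes regulate growth of the fetus and placenta, and loss of the mark is common in tumours and in long-term culture. After birth many of them are turned down in most tissues.

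Libraries of normal cells held between 16332060 and 24202564 counts, those of mECC between 21755275 and 25821106, and those of HPmECC between 18402202 and 26873582. The groups also differed in markers of cell types. The summed level of 12 epithelial markers in counts-per-million units (CPM) was 9489.5 to 9827 in normal libraries, 1616 to 1655 in mECC and 309.8 to 326 in HPmECC. For 13 mesenchymal markers it was 5778 to 6847, 18111 to 20446 and 20391 to 22900 CPM in that order, with Thy1 at 0 in mECC. This rise was not uniform. Of the 13, 9 rose and 4 fell in each line against normal cells, and Col1a2, Thy1, Dcn and Lum were the 4 in both. Of all genes, 42.1% rose and 44.2% fell in mECC, and 43.0% and 43.3% in HPmECC. Smooth muscle markers (6 genes) summed to 2280 to 2748, 51.4 to 53.7 and 187 to 249 CPM, and leukocyte markers (8 genes) to 322 to 412, 55.6 to 60.8 and 29.1 to 32.4 CPM. Endothelial markers (6 genes) summed to 109 to 122, 3.33 to 4.15 and 5.23 to 7.71 CPM, and mesothelial markers (7 genes) to 475 to 527, 53.8 to 59.3 and 47.6 to 53.1 CPM. Ptprc was at 0 in HPmECC, Tyrobp in both lines, Cdh5 and Tek in HPmECC, Wt1 in mECC, Upk1b in both lines, and Upk3b, Lrrn4 and Krt5 in HPmECC. All 10 endometrial markers, Esr1, Pgr and Pax8 among them, had counts in each group, with sums of 2043 to 2345, 270.4 to 292 and 149 to 172 CPM. Ltf alone made up 1416 CPM of the normal sum, and Ltf and Msx1 each had 1 summed count in mECC. From normal cells to mECC, 3 of the 10 endometrial markers rose and 7 fell, where 42.1% and 44.2% of all genes did. The 3 were Pgr (4.32-fold), Foxa2 (9.68-fold) and Emx2 (2.04-fold), with edgeR adjusted p = 1.52e-14, 1.52e-15 and 1.25e-14. By at least 2-fold 6 fell, Pax8 (10.8-fold), Wnt7a (30.5-fold) and Hoxa11 (82.6-fold) among them. From normal cells to HPmECC, 2 of the 10 rose, Pgr and Emx2, and 7 fell, where 43.0% and 43.3% of all genes did. Foxa2 was not called there (edgeR adjusted p = 0.267), and Pax8 was 195.5-fold lower (edgeR adjusted p = 7.1e-25). Normal cultures thus held transcripts of several cell types, and the part of these in the differences below was not tested. Since these are bulk samples, fewer cells of a type and less RNA per cell cannot be told apart.

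**Figure D1:**
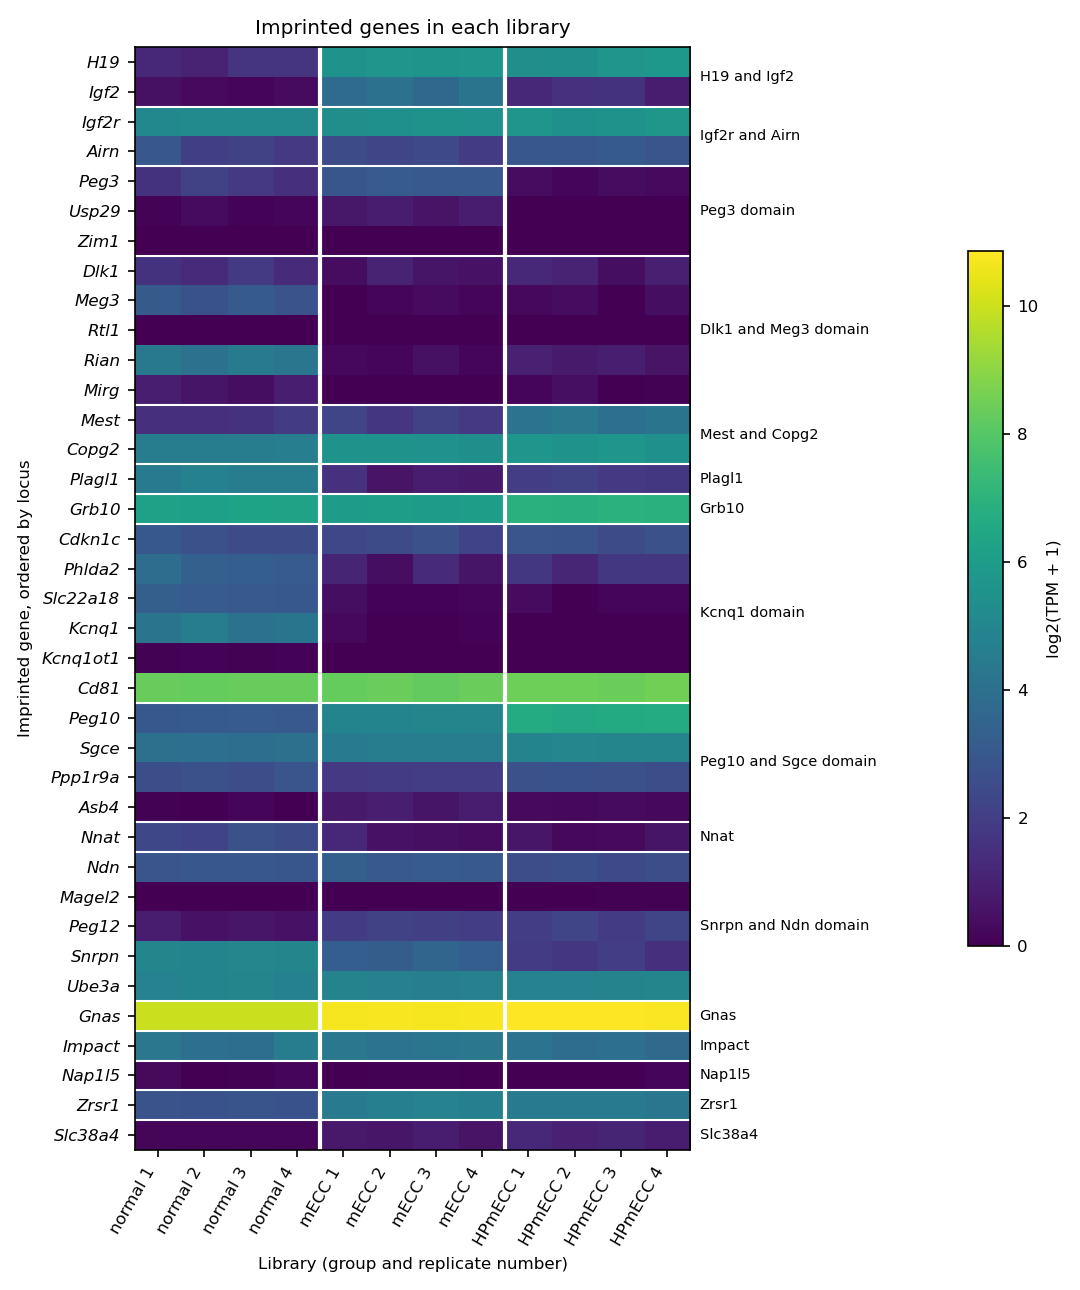
Level of each of the 37 imprinted genes (vertical axis, ordered by locus) in each of the 12 libraries (horizontal axis), as colour on a scale of log2(TPM + 1), where TPM (transcripts-per-million) is scaled by length and library. The 4 columns of a group look alike for most genes, and Gnas and Cd81 are the brightest in all 3 groups, whereas Zim1, Rtl1, Magel2 and Nap1l5 stay dark.

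On the length-scaled TPM scale, which allows levels to be compared between genes, Gnas, Cd81 and Grb10 led in each group. Gnas encodes the alpha subunit of the stimulatory G protein and averaged 1017, 1697 and 1810.1 TPM in normal, mECC and HPmECC cells. Cd81, a membrane tetraspanin gene, averaged 319, 319 and 355 TPM. Grb10, an adaptor that restrains signalling from the insulin receptor, averaged 73.6, 64.0 and 118 TPM. The fourth place differed between groups. It was held by Igf2r in normal cells (34.3 TPM), by H19 in mECC (48.9 TPM) and by Peg10 in HPmECC (98.7 TPM). At least 1 TPM was reached by 26 of the 37 genes in normal cells, by 20 in mECC and by 22 in HPmECC. The number at 10 TPM or more was 12 in each group. The colour map of levels shows this division into a few high genes and many low ones.

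Setting mECC against normal cells asks how this line departs from the cultured tissue. With edgeR's quasi-likelihood test and a Benjamini-Hochberg adjusted p under 0.05 over all genes tested, 13 imprinted genes were higher, 16 were lower and 3 were not called. Most genes differed between these groups, so these counts stand against a background of 42.1% of all tested genes called higher and 44.2% called lower, 86.3% in either direction. The imprinted genes were called in 90.6% of cases, close to the background. When library totals replaced the scaling factors (TMM, trimmed mean of M values), the split became 16 higher and 13 lower, or 55.2% higher in place of 44.8%, and with limma on TPM it was 15 higher and 12 lower. The share higher among all genes called moved likewise, from 48.8% to 59.1% with library totals and 58.9% with limma on TPM. A change of at least 2-fold as well was found for 9 higher and 11 lower genes, 62.5% of the 32, where 18.4% of all genes were higher and 22.8% lower by that rule, 41.2% together. The median absolute log2 fold change was 1.90 over the 32 genes and 0.77 over all genes, and the median signed value was -0.20 against -0.02. A gene that is silent in most groups enters the test only if another group expresses it, so the 32 are not a neutral sample of the 37.

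For HPmECC against normal cells, which share the same 4 normal libraries, 14 imprinted genes were higher, 15 were lower and 3 were not called. In this comparison 43.0% of all genes were called higher and 43.3% lower, 86.4% in either direction. By at least 2-fold, 8 were higher and 12 lower, beside a background of 18.5% and 23.0%, 41.5% together. The median absolute log2 fold change was 2.24, against 0.78 over all genes.

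HPmECC against mECC sets the cancer lines beside each other. Here 18 imprinted genes were higher in HPmECC, 9 were lower and 5 were not called, where 33.8% of all genes were called higher and 34.5% lower, 68.3% in either direction. By at least 2-fold, 7 were higher and 6 lower, or 40.6% of the 32, while the background was 6.73% higher and 9.4% lower, 16.1% together. The median absolute log2 fold change was 0.90 over the imprinted genes and 0.32 over all genes.

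**Figure D2:**
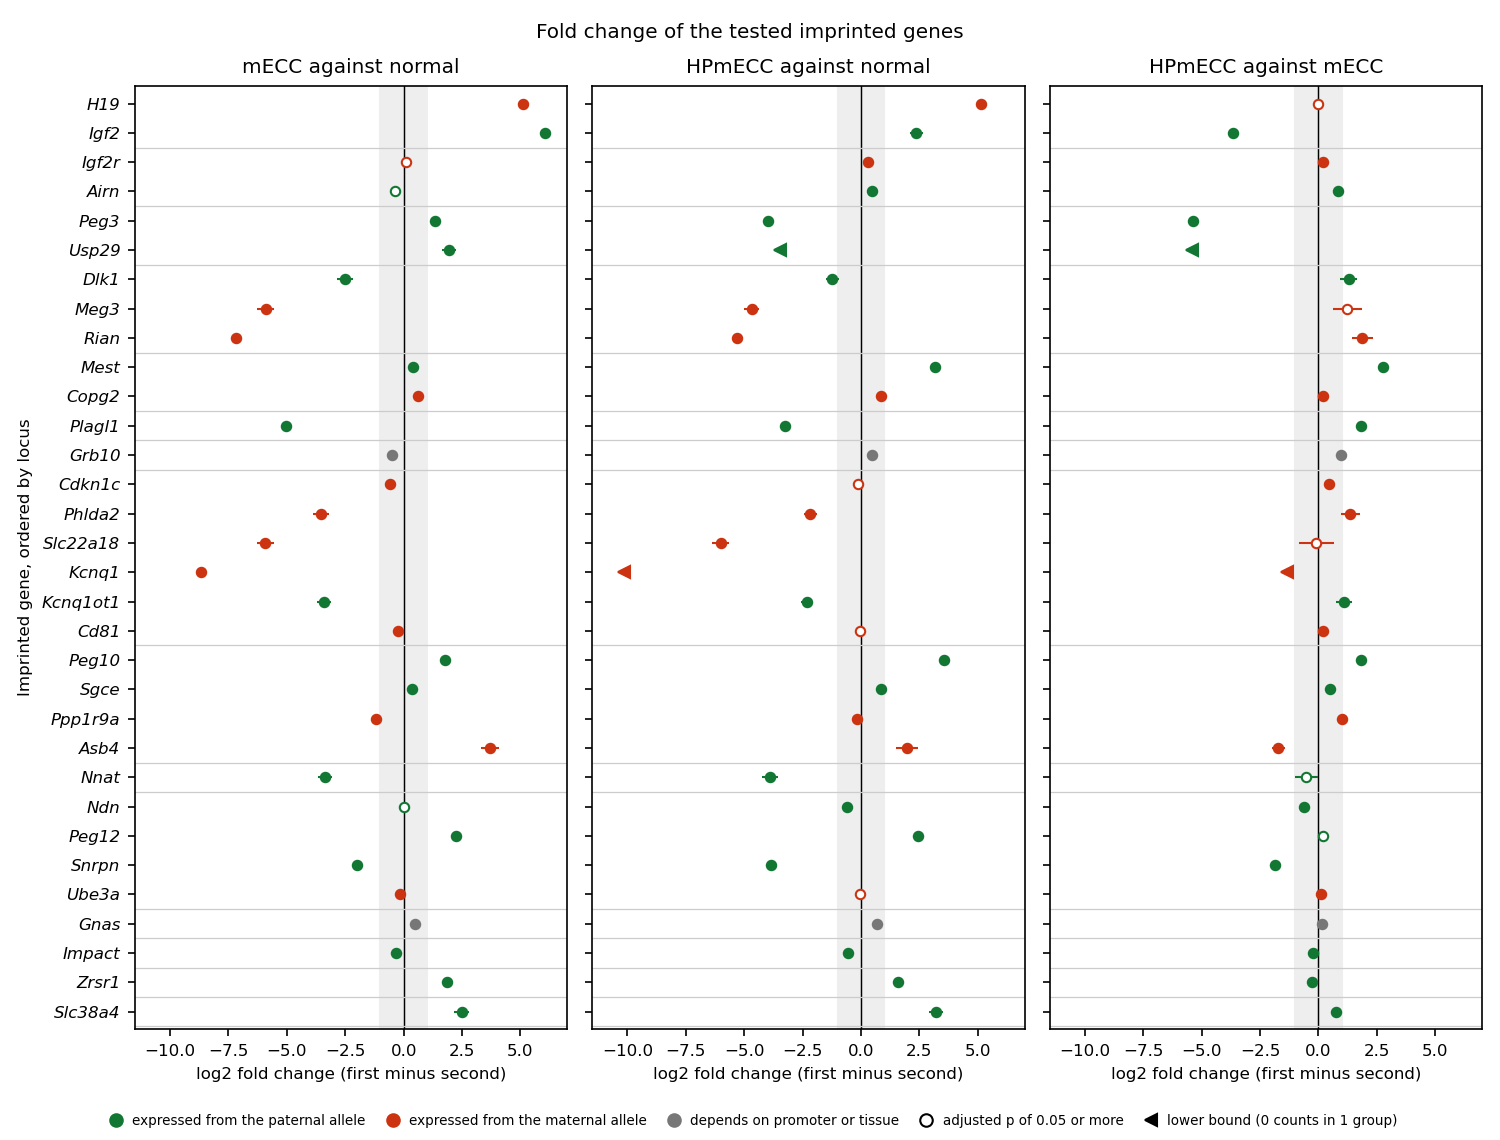
Log2 fold change of the 32 tested imprinted genes (vertical axis, by locus) in the 3 comparisons, with bars of 1 standard error from the edgeR fit, filled points for an adjusted p under 0.05 and triangles for lower bounds where a group had 0 counts. Colours give the parental copy known to be expressed, and the grey band spans changes under 2-fold. H19 and Igf2 lie far to the right and Kcnq1, Rian and Meg3 far to the left in both comparisons with normal cells, while Peg3 and Usp29 change sides between the lines.

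Genes of either parental class moved in both directions, as genes at large did. Of the 17 tested genes expressed from the paternal copy, 9 rose and 6 fell from normal cells to mECC, and 8 rose and 9 fell to HPmECC. Among the 13 tested maternal genes, 3 were higher and 9 lower in mECC, and 4 were higher and 6 lower in HPmECC. In HPmECC against mECC, 8 paternal genes were higher and 7 lower, and 8 maternal genes were higher and 2 lower. Of all genes, 42.1% were called higher and 44.2% lower in mECC, and 43.0% and 43.3% in HPmECC, both against normal cells. Between the lines these shares were 33.8% and 34.5%. Calls in either direction made up 88.2%, 100% and 88.2% of paternal and 92.3%, 76.9% and 76.9% of maternal genes. The shares over all genes were 86.3%, 86.4% and 68.3%. Median log2 fold changes of mECC against normal cells were 0.37 for paternal and -0.60 for maternal genes. For HPmECC against normal cells they were -0.57 and -0.14, and between the lines 0.21 and 0.21. The difference between the classes was not tested.

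H19 and Igf2, which share enhancers on chromosome 7, had the 2 largest rises among the 32 tested genes in mECC. H19 is a maternally expressed noncoding RNA that restrains growth, and Igf2 encodes a paternally expressed fetal growth factor. H19 (ENSMUSG00000000031, chr7:142575529-142578143 of GRCm38, minus strand) also carries a microRNA precursor inside an exon. The arms of that precursor, which was not itself measured here, are given to show what an H19 transcript can yield, with RefSeq sequences on build GRCm38.p6 and the seed (bases 2 to 8) in capitals:
miR-675-5p: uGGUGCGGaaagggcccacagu
miR-675-3p: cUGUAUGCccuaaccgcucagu
The normal libraries held 1.49, 1.35, 1.21 and 2.53 CPM of H19, scaled by TMM as are all CPM values below. In mECC the values were 56.8, 60.3, 57.4 and 62.3 CPM, and in HPmECC 51.2, 51.6, 63.3 and 70.2 CPM. Every library of both lines lay far above every normal library, and the lines overlapped each other. H19 averaged 1.64 ± 0.598 CPM in normal cells (SD, n = 4, as for all errors after ±) and rose 35-fold in mECC (log2 fold change 5.13 with SE 0.16, adjusted p = 2.72e-16 by edgeR). In HPmECC it rose 34.9-fold (log2 fold change 5.12 with SE 0.16, adjusted p = 2.82e-16 by edgeR). Between the lines no difference was called, at 59.2 ± 2.57 CPM in mECC and 59.1 ± 9.31 CPM in HPmECC (edgeR adjusted p = 0.977).

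Igf2 (ENSMUSG00000048583, chr7:142650766-142666816, minus strand) stood at 0.135, 0.208, 0.331 and 0.643 CPM in normal libraries. Its mECC libraries held 22.3, 22.5, 22.3 and 27.4 CPM, and its HPmECC libraries 1.62, 1.89, 2.10 and 1.77 CPM. The 3 groups did not overlap, with HPmECC between the others and nearer to normal cells. The rise was 66.2-fold in mECC (log2 fold change 6.05 with SE 0.18, adjusted p = 2.01e-16 by edgeR) and 5.16-fold in HPmECC (2.37 with SE 0.29, adjusted p = 3.35e-07 by edgeR). Without normal replicate 4, the highest normal library, the log2 fold change rose to 6.65 in mECC and 2.96 in HPmECC. HPmECC was 12.8-fold lower than mECC (log2 fold change -3.68 with SE 0.13, adjusted p = 1.12e-14 by edgeR). The lines thus differed in Igf2 while no difference in H19 was called. In TPM, Igf2 amounted to 0.242 to 0.331 of H19 in mECC, 0.0147 to 0.0480 in HPmECC and 0.0673 to 0.318 in normal libraries. The annotated gene Gm49394 covers 62.8% of the exon bases of Igf2 on the same strand, and it received 0, 0 and 7 counts in normal, mECC and HPmECC cells.

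Igf2r, the receptor that carries IGF2 to the lysosome for degradation, changed little beside its ligand. It averaged 207 ± 6.88, 219.5 ± 11.8 and 253 ± 25.8 CPM in normal, mECC and HPmECC cells. The difference between mECC and normal cells was not called (log2 fold change 0.084, edgeR adjusted p = 0.168), although with library totals as the scale it was 0.32 and called. HPmECC was 1.22-fold above normal cells (edgeR adjusted p = 1.08e-04) and 1.15-fold above mECC (edgeR adjusted p = 3.29e-03), the latter not called in limma on TPM (adjusted p = 0.0654 and 0.0658). Airn, the paternal noncoding RNA that silences Igf2r in cis, held 3.03, 2.82, 3.10 and 2.87 CPM in HPmECC, above the 1.28 to 2.10 CPM of mECC. HPmECC exceeded mECC 1.77-fold (edgeR adjusted p = 1.46e-03). Against normal cells at 1.47 to 3.32 CPM the edgeR adjusted p for HPmECC was 0.0451, and 11 alternative settings moved it past 0.05. In mECC the log2 fold change of Airn was -0.36 (edgeR adjusted p = 0.13), and it turned positive in TPM.

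**Figure D3:**
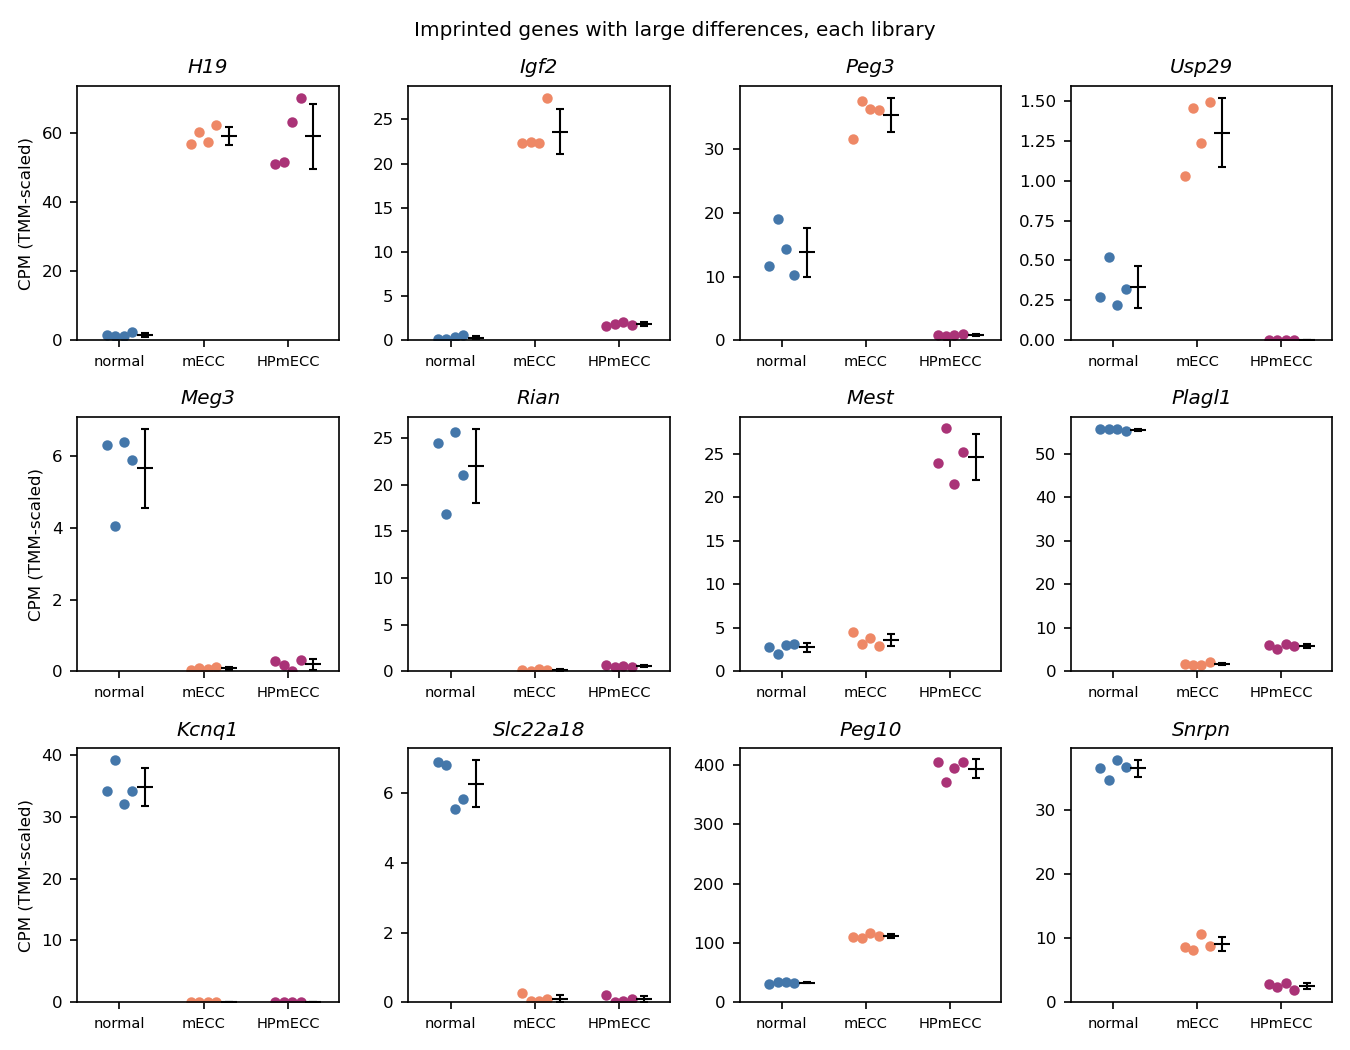
CPM of 12 imprinted genes in each library (points) by group, with the mean and SD of the 4 libraries beside them, on linear axes that start at 0. H19 is high in both lines, Igf2, Peg3 and Usp29 are highest in mECC, Mest and Peg10 in HPmECC, and Meg3, Rian, Plagl1, Kcnq1, Slc22a18 and Snrpn in normal cells.

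The Peg3 domain separated the lines most sharply. Peg3, a paternally expressed zinc finger gene, and Usp29, a paternally expressed gene of the ubiquitin protease family, start head to head on opposite strands of chromosome 7. Peg3 (ENSMUSG00000002265, chr7:6703892-6730431, minus strand) held 11.6, 19, 14.3 and 10.3 CPM in normal libraries. In mECC it held 31.5, 37.5, 36.2 and 36.0 CPM, and in HPmECC 0.895, 0.679, 0.787 and 1.07 CPM. The groups did not overlap, and mECC was highest while HPmECC was lowest. The rise in mECC was 2.56-fold (log2 fold change 1.36 with SE 0.12, adjusted p = 3.88e-09 by edgeR). In HPmECC Peg3 fell 15.9-fold from normal cells (log2 fold change -3.99 with SE 0.22, adjusted p = 2.2e-12 by edgeR), which put it 40.8-fold below mECC (-5.35 with SE 0.19, adjusted p = 1.46e-14 by edgeR).

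Usp29 (ENSMUSG00000051527, chr7:6730578-6967219, plus strand) followed the same order at a lower level. It held 0.271, 0.519, 0.220 and 0.321 CPM in normal libraries, 1.03, 1.45, 1.23 and 1.49 CPM in mECC, and 0 counts in each HPmECC library. In summed counts this was 25, 133 and 0. Usp29 rose 3.81-fold in mECC (log2 fold change 1.93 with SE 0.31, adjusted p = 2.27e-05 by edgeR). Bounds took 3 counts over the 4 HPmECC libraries as the most that 0 allows, without the counting error of the other group. By them the HPmECC level was at least 11-fold lower than in normal cells (edgeR adjusted p = 8.67e-06) and at least 42.4-fold lower than in mECC (edgeR adjusted p = 1.49e-08). Zim1, the maternal zinc finger gene next to Peg3, had 1, 2 and 0 counts in all libraries of the 3 groups and was not tested.

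The RefSeq promoter windows of Peg3 and Usp29, each 250 bases long up to the start site, overlap by 163 bases. The Peg3 window at chr7:6730420-6730669 (GRCm38.p6, minus strand) is shown because both genes move together and share it. CpG pairs, the sites of the methylation mark, are in capitals:
Peg3: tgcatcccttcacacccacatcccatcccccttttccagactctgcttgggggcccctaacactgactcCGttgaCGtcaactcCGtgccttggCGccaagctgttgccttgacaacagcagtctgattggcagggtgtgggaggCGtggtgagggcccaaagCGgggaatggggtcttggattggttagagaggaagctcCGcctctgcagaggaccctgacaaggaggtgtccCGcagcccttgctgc
It holds 8 CpG pairs, against a median of 6 over all 32851 windows, and no match to TGCCGC on either strand. TGCCGC is the hexamer that the imprint-keeping protein ZFP57 binds when its CpG is methylated, so each match overlaps a CpG. Of the 37 genes, 30 had 47 windows in the RefSeq table, and 7 of the 47 held the hexamer, while 8.68% of all windows did. Several of the 47 windows overlap, and methylation was not measured.

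At the Dlk1 and Meg3 domain on chromosome 12 the maternally expressed noncoding RNAs were nearly absent from both lines. Meg3, Rian and Mirg are transcribed in 1 direction along the maternal copy and host many small RNAs, 57 annotated hairpins between the start of Meg3 and the end of Mirg, 54 of them on the same strand. Meg3 (ENSMUSG00000021268, chr12:109541001-109571726, plus strand) held 6.30, 4.05, 6.39 and 5.88 CPM in normal libraries. Its mECC values were 0.0428, 0.109, 0.0725 and 0.128 CPM, and its HPmECC values 0.298, 0.179, 0 and 0.332 CPM. All 8 libraries of the lines lay below all 4 normal ones. Meg3 fell 60.2-fold in mECC (log2 fold change -5.91 with SE 0.37, adjusted p = 1.74e-11 by edgeR) and 25.7-fold in HPmECC (-4.69 with SE 0.32, adjusted p = 7.34e-11 by edgeR). Between the lines the difference was not called (log2 fold change 1.23, edgeR adjusted p = 0.0909), but it was without HPmECC replicate 3, the library at 0 (1.54, edgeR adjusted p = 0.0131).

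Rian (ENSMUSG00000097451, chr12:109603940-109661716, plus strand) held 24.4, 16.9, 25.7 and 21.0 CPM in normal libraries. In mECC it held 0.128, 0.0727, 0.254 and 0.128 CPM, and in HPmECC 0.682, 0.429, 0.630 and 0.516 CPM. Here the lines did not overlap, with HPmECC above mECC and both far under normal cells. Rian fell 144-fold in mECC (log2 fold change -7.17 with SE 0.22, adjusted p = 3.34e-16 by edgeR) and 39.2-fold in HPmECC (-5.29 with SE 0.18, adjusted p = 1.41e-15 by edgeR). HPmECC exceeded mECC 3.67-fold (log2 fold change 1.88 with SE 0.44, adjusted p = 9.76e-04 by edgeR), from summed counts of 54 and 15. Mirg had 26, 0 and 5 counts in the 3 groups and was not tested. By the bound used for Usp29, its mECC level was at least 12-fold lower than the normal one. Small RNAs themselves were not measured. In the same libraries the epithelial, smooth muscle, endothelial, leukocyte, mesothelial and endometrial marker sums were lower than in normal cells, as given above. The mesenchymal sum was higher. The part of these differences in the low Meg3 and Rian levels was not tested.

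The paternally expressed genes of this domain were low in each group. Dlk1, a membrane protein related to Notch ligands, held 2.10, 1.40, 1.93 and 1.51 CPM in normal libraries. In mECC it held 0.257, 0.218, 0.362 and 0.340 CPM, and in HPmECC 1.11, 0.643, 0.262 and 0.847 CPM. HPmECC replicate 3 lay within the range of mECC, and no line library reached the normal range. Dlk1 fell 5.76-fold in mECC (log2 fold change -2.53 with SE 0.34, adjusted p = 1.14e-06 by edgeR) and 2.34-fold in HPmECC (-1.23 with SE 0.29, adjusted p = 7.37e-04 by edgeR). The lines differed 2.46-fold in counts (edgeR adjusted p = 4.35e-03), a call that was lost in limma on TPM. Rtl1, a retrotransposon-derived gene of the placenta, had 1, 2 and 0 counts and was not tested.

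The Meg3 promoter window (chr12:109540746-109540995, GRCm38.p6, plus strand) is shown because Meg3 heads the transcripts that fell together, with CpG pairs in capitals:
Meg3: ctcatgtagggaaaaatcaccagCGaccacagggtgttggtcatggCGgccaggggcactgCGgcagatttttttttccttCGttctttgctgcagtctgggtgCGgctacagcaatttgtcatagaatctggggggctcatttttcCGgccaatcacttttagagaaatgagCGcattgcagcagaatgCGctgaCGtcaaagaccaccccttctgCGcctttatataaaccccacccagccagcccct
It has 10 CpG pairs and 1 match to TGCCGC.

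Mest and Copg2 overlap tail to tail on chromosome 6. Mest, which encodes a paternally expressed hydrolase-like protein of mesoderm, was raised mainly in HPmECC. Mest (ENSMUSG00000051855, chr6:30723547-30748465, plus strand) held 2.78, 2.03, 3.09 and 3.17 CPM in normal libraries and 4.49, 3.20, 3.88 and 2.89 CPM in mECC. In HPmECC it held 24.0, 27.9, 21.5 and 25.2 CPM. Normal and mECC values overlapped, and HPmECC stood clear of both. The rise from normal cells to HPmECC was 8.91-fold (log2 fold change 3.16 with SE 0.13, adjusted p = 3.07e-14 by edgeR), and HPmECC was 6.84-fold above mECC (2.77 with SE 0.12, adjusted p = 2.5e-13 by edgeR). For mECC against normal cells the difference was 1.3-fold with an edgeR adjusted p of 0.0431, and 7 alternative settings moved it past 0.05, among them the removal of normal replicate 1 or 2 or of mECC replicate 1 or 3.

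Copg2, a coatomer subunit gene that is maternally expressed in some mouse tissues, rose 1.55-fold in mECC and 1.79-fold in HPmECC, from 50.4 ± 2.20 to 78.3 ± 3.80 and 90.5 ± 3.75 CPM (edgeR adjusted p = 8.39e-11 and 9.19e-13). In TPM, Mest amounted to 0.0772 to 0.113 of Copg2 in normal libraries, 0.0506 to 0.0812 in mECC and 0.290 to 0.427 in HPmECC. The genes share 912 exon bases on opposite strands, 23.1% of Mest and 17.8% of Copg2, and the strand setting of the counting is not given in the sources used here. Reads in the shared bases may therefore belong to either gene.

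An intron of Mest holds the microRNA hairpin of miR-335, whose RefSeq arms are given, with the seed in capitals, because the host gene changed so much between the lines:
miR-335-5p: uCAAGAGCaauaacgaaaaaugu
miR-335-3p: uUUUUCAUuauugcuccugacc
The 4 microRNA arms printed here have 4 different seeds. Of the 3 Mest windows in RefSeq, the one at chr6:30737800-30738049 (plus strand) is shown with CpG pairs in capitals because no window of another of these genes holds as many hexamer matches:
Mest: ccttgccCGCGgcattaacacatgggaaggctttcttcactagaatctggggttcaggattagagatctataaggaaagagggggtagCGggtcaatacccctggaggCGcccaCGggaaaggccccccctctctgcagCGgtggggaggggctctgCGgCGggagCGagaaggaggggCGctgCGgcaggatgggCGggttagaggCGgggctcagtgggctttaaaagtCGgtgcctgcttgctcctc
It has 14 CpG pairs and 2 matches to TGCCGC.

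**Figure D4:**
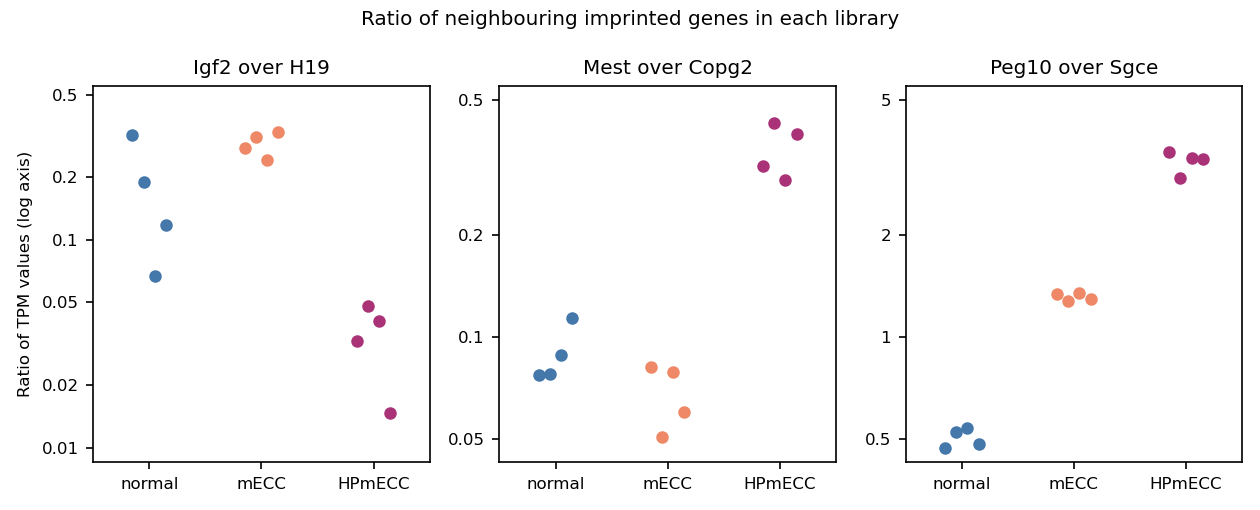
Ratio of TPM values of neighbouring imprinted genes in each library (points), on log axes: Igf2 over H19, Mest over Copg2 and Peg10 over Sgce. Igf2 over H19 is lowest in HPmECC (0.0147 to 0.0480), whereas Mest over Copg2 (0.290 to 0.427) and Peg10 over Sgce (2.95 to 3.52) are highest there.

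Plagl1 and Grb10, on chromosomes 10 and 11, both act on growth. Plagl1 (ENSMUSG00000019817, chr10:13060504-13131694, plus strand), a paternally expressed zinc finger transcription factor that can halt the cell cycle, held 55.6, 55.7, 55.6 and 55.2 CPM in normal libraries. In mECC it held 1.75, 1.42, 1.49 and 2.09 CPM, and in HPmECC 6.10, 5.11, 6.35 and 5.93 CPM. The groups were far apart and mECC was lowest. Plagl1 fell 33.2-fold in mECC (log2 fold change -5.05 with SE 0.08, adjusted p = 1.72e-20 by edgeR) and 9.51-fold in HPmECC (-3.25 with SE 0.07, adjusted p = 5.61e-19 by edgeR). HPmECC held 3.49-fold more than mECC (log2 fold change 1.80 with SE 0.11, adjusted p = 5.34e-11 by edgeR). Its RefSeq promoter window (chr10:13090582-13090831, GRCm38.p6, plus strand), shown because the gene changed in all 3 comparisons and the window is rich in CpG pairs, reads with CpG in capitals:
Plagl1: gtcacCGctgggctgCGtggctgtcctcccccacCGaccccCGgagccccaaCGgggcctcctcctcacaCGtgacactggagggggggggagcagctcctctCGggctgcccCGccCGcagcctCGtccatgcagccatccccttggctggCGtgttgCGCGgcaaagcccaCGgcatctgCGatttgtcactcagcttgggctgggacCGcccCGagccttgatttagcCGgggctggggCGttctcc
The window has 19 CpG pairs and 1 match to TGCCGC, and 19.7% of all windows have as many CpG pairs.

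Grb10 moved in opposite directions in the lines. It averaged 248 ± 11.5, 177 ± 5.06 and 347 ± 6.75 CPM in normal, mECC and HPmECC cells. It fell 1.40-fold in mECC (edgeR adjusted p = 5.6e-11) and rose 1.40-fold in HPmECC (edgeR adjusted p = 5.35e-11). HPmECC was 1.96-fold above mECC (edgeR adjusted p = 8.36e-15).

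The Kcnq1 domain of chromosome 7 held several maternal genes that were lower in both lines. It holds Kcnq1, a potassium channel subunit, Slc22a18, a membrane transporter, Phlda2, which restrains growth of the placenta, and Cdkn1c, an inhibitor of cyclin-dependent kinases. Kcnq1ot1, the paternal noncoding RNA that starts inside Kcnq1, silences the others in cis. Kcnq1 (ENSMUSG00000009545, chr7:143106362-143427042, plus strand) held 34.1, 39.1, 32.0 and 34.2 CPM in normal libraries. In mECC it held 0.128, 0.0363, 0.0362 and 0.128 CPM, and HPmECC had 0 counts in all 4 libraries. Summed counts were 2580, 8 and 0. Kcnq1 fell 415-fold in mECC (log2 fold change -8.70 with SE 0.18, adjusted p = 1.07e-16 by edgeR), the steepest fitted fall among the 37 genes in that comparison. In HPmECC it was at least 1135-fold lower than in normal cells (edgeR adjusted p = 9.65e-17) and at least 2.55-fold lower than in mECC (edgeR adjusted p = 7.2e-03). The latter rests on 8 against 0 counts, with the counting error of the 8 left out of the bound. It was not called in limma on log2(TPM + 1) (adjusted p = 0.391).

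Slc22a18 (ENSMUSG00000000154, chr7:143473736-143499334, plus strand) held 6.91, 6.80, 5.56 and 5.83 CPM in normal libraries. It held 0.257, 0.0363, 0.0362 and 0.0851 CPM in mECC and 0.213, 0, 0.0525 and 0.111 CPM in HPmECC, so the lines overlapped far under normal cells. It fell 60.4-fold in mECC (log2 fold change -5.92 with SE 0.36, adjusted p = 1.13e-11 by edgeR) and 64.1-fold in HPmECC (-6.00 with SE 0.37, adjusted p = 1.23e-11 by edgeR). Without replicate 1 of the line compared, the log2 fold change was -6.79 in mECC and -6.72 in HPmECC. With 10 and 9 summed counts the lines were not told apart (edgeR adjusted p = 0.933).

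Phlda2 (ENSMUSG00000010760, chr7:143501545-143503150, minus strand) held 3.86, 2.81, 2.70 and 2.39 CPM in normal libraries. Its values were 0.299, 0.0727, 0.435 and 0.170 CPM in mECC and 0.725, 0.357, 0.840 and 0.700 CPM in HPmECC. The lines overlapped in part, and all of their libraries lay below normal cells. The fall was 11.6-fold in mECC (log2 fold change -3.54 with SE 0.34, adjusted p = 1.19e-08 by edgeR) and 4.51-fold in HPmECC (-2.17 with SE 0.29, adjusted p = 1.27e-06 by edgeR), and HPmECC was 2.58-fold above mECC (edgeR adjusted p = 6.43e-03).

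Kcnq1ot1 was lower in the lines as well. It held 3.32, 4.31, 3.36 and 5.33 CPM in normal libraries, 0.513, 0.327, 0.326 and 0.383 CPM in mECC and 1.02, 0.357, 0.787 and 1.14 CPM in HPmECC. Normal libraries stood apart from the rest, and the lines overlapped through HPmECC replicate 2. It fell 10.6-fold in mECC (edgeR adjusted p = 2.52e-09) and 4.98-fold in HPmECC (edgeR adjusted p = 1.26e-07). Kcnq1ot1, Kcnq1, Slc22a18 and Phlda2 were thus lower in both lines. In the same libraries the summed epithelial, smooth muscle, endothelial, leukocyte, mesothelial and endometrial markers were lower than in normal cells too. The summed mesenchymal markers were higher. The part of these differences in the fall of the named genes was not tested. Since the Kcnq1ot1 transcript is very long, its TPM was under 0.1 in each group, and in limma on log2(TPM + 1) its calls were lost. Kcnq1ot1 (chr7:143203458-143296549, minus strand) lies wholly within the span of Kcnq1 and shares 121 exon bases with it on the opposite strand. The strand setting of the counting is not given, so reads from Kcnq1 in that span may be counted for Kcnq1ot1. The fall of Kcnq1ot1 is therefore not shown to be separate from that of Kcnq1.

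Cdkn1c, which lies between Kcnq1 and Slc22a18, and Cd81, at the edge of the domain, changed less. Cdkn1c averaged 4.72 ± 0.862, 3.08 ± 0.354 and 4.22 ± 0.512 CPM in normal, mECC and HPmECC cells. It was 1.51-fold lower in mECC than in normal cells (edgeR adjusted p = 8.22e-04), and 1.37-fold higher in HPmECC than in mECC (edgeR adjusted p = 7.57e-03). Neither difference was called in limma on TPM with either pseudocount (adjusted p from 0.104 to 0.11 and from 0.0758 to 0.0802). Cd81 averaged 293 ± 7.19, 248 ± 9.15 and 286 ± 6.95 CPM. It was 1.18-fold lower in mECC than in normal cells (edgeR adjusted p = 5.92e-07), a direction that turned with library totals as the scale (log2 fold change 0.0025).

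At the Peg10 and Sgce domain of chromosome 6 the paternal genes rose in both lines. Peg10 derives from a retrotransposon and is needed for the placenta, and Sgce encodes a sarcoglycan of the cell membrane. Their starts lie head to head. Peg10 (ENSMUSG00000092035, chr6:4747306-4760517, plus strand) held 31.7, 33.7, 34.2 and 32.9 CPM in normal libraries. In mECC it held 109.9, 109, 116 and 112 CPM, and in HPmECC 405, 370.4, 394 and 404 CPM. The 3 groups stood far apart with little spread within each. Peg10 rose 3.37-fold in mECC (log2 fold change 1.75 with SE 0.04, adjusted p = 1.78e-18 by edgeR) and 11.9-fold in HPmECC (3.57 with SE 0.04, adjusted p = 3.42e-23 by edgeR), and HPmECC was 3.52-fold above mECC (1.81 with SE 0.03, adjusted p = 1.27e-18 by edgeR).

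Sgce stepped up in the same order, at 15 ± 0.448, 19.4 ± 0.579 and 27.3 ± 1.24 CPM. It rose 1.29-fold in mECC and 1.82-fold in HPmECC (edgeR adjusted p = 3.77e-06 and 1.05e-11). Its change was smaller than that of Peg10, and the TPM of Peg10 over that of Sgce lay between 0.469 and 0.538 in normal libraries, between 1.27 and 1.35 in mECC and between 2.95 and 3.52 in HPmECC.

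The maternal genes of the domain differed from each other. Ppp1r9a, which encodes the actin-binding protein neurabin, averaged 25.3 ± 1.92, 11.1 ± 0.597 and 22.1 ± 0.764 CPM. It was 2.28-fold lower in mECC than in normal cells (edgeR adjusted p = 1.49e-12) and 1.99-fold higher in HPmECC than in mECC (edgeR adjusted p = 7.59e-11). Its 1.15-fold lower value in HPmECC than in normal cells was called (edgeR adjusted p = 4.62e-03) but turned with library totals (log2 fold change 0.00054). Asb4, an adaptor of ubiquitin ligases, held 0.0677, 0.0519, 0.220 and 0.0459 CPM in normal libraries, 1.01 to 1.60 CPM in mECC and 0.357 to 0.472 CPM in HPmECC. It was 13.0-fold higher in mECC (edgeR adjusted p = 3.95e-08) and 3.95-fold higher in HPmECC (edgeR adjusted p = 7.71e-04) than in normal cells, from a sum of 7 counts in the latter. Leaving out normal replicate 3, where it was highest, raised the log2 fold change of mECC from 3.70 to 4.46, and that of HPmECC from 1.98 to 2.74. The nearest tested gene on the Sgce side that is not in the imprinted lists, Col1a2, which encodes a collagen chain of fibroblasts and lies 132 kb away, averaged 353, 38.6 and 166 CPM.

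Within the Snrpn and Ndn domain of chromosome 7 the paternal genes parted ways. Snrpn encodes a spliceosome protein, Ndn and Magel2 belong to the MAGE family, and Peg12 encodes a relative of Frat proteins that act in Wnt signalling. Snrpn (ENSMUSG00000102252, chr7:59982495-60140219, minus strand) held 36.7, 34.8, 38.0 and 36.9 CPM in normal libraries. It held 8.64, 8.25, 10.8 and 8.77 CPM in mECC and 2.90, 2.47, 3.04 and 1.88 CPM in HPmECC. The groups did not overlap and stepped down in that order. Snrpn fell 4.01-fold in mECC (log2 fold change -2.0 with SE 0.08, adjusted p = 3.91e-14 by edgeR) and 14.4-fold in HPmECC (-3.85 with SE 0.10, adjusted p = 4.19e-17 by edgeR), and HPmECC was 3.60-fold below mECC (-1.85 with SE 0.12, adjusted p = 1.34e-10 by edgeR). The annotated genes Gm38393 and Snurf share exon bases with it on the same strand, so its counts may be split with theirs. These received 110 and 78 counts in normal cells, 55 and 27 in mECC and 13 and 9 in HPmECC.

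Peg12 rose in both lines. It held 1.29, 0.779, 0.992 and 0.735 CPM in normal libraries, 3.85, 4.69, 4.64 and 4.21 CPM in mECC and 4.39, 5.75, 3.99 and 5.82 CPM in HPmECC. Both lines lay above normal cells and overlapped each other. The rise was 4.70-fold in mECC (log2 fold change 2.23 with SE 0.19, adjusted p = 2.77e-09 by edgeR) and 5.43-fold in HPmECC (2.44 with SE 0.19, adjusted p = 5.82e-10 by edgeR). No difference between the lines was called (edgeR adjusted p = 0.195).

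Ndn averaged 16 ± 0.282, 16 ± 1.48 and 10.5 ± 0.860 CPM. It was 1.52-fold lower in HPmECC than in either other group (edgeR adjusted p = 4.7e-07 against normal cells and 6.67e-07 against mECC). The value for mECC against normal cells was not called (edgeR adjusted p = 0.961), and its sign depended on the scaling. Ube3a, a maternally expressed ubiquitin ligase gene in neurons, averaged 108 ± 5.86, 96.8 ± 2.92 and 105 ± 1.73 CPM. It was 1.12-fold lower in mECC than in normal cells (edgeR adjusted p = 4.91e-04), and with library totals this direction turned (log2 fold change 0.082). Magel2 had 1, 1 and 7 counts and was not tested.

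The remaining genes lie at other loci. Nnat, a paternally expressed membrane proteolipid gene, held 2.78, 2.49, 3.80 and 3.31 CPM in normal libraries, 0.556, 0.254, 0.181 and 0.213 CPM in mECC and 0.341, 0.0715, 0.157 and 0.258 CPM in HPmECC. The lines overlapped and lay below all normal libraries. Nnat fell 10.3-fold in mECC (log2 fold change -3.37 with SE 0.31, adjusted p = 8.12e-09 by edgeR) and 14.7-fold in HPmECC (-3.88 with SE 0.34, adjusted p = 2.94e-09 by edgeR). Between the lines the edgeR adjusted p was 0.347.

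Slc38a4, a paternally expressed amino acid transporter gene, held 0.135, 0.208, 0.275 and 0.275 CPM in normal libraries, 1.41, 0.981, 1.78 and 1.06 CPM in mECC and 2.43, 1.97, 2.47 and 1.95 CPM in HPmECC. The groups did not overlap and rose in that order. The rise was 5.61-fold in mECC (log2 fold change 2.49 with SE 0.32, adjusted p = 6.04e-07 by edgeR) and 9.35-fold in HPmECC (3.22 with SE 0.30, adjusted p = 6.21e-09 by edgeR), and HPmECC was 1.67-fold above mECC (edgeR adjusted p = 3.7e-03). Zrsr1, a paternally expressed relative of a splicing factor gene, averaged 8.43 ± 0.350, 30.7 ± 3.00 and 25.5 ± 2.07 CPM. It rose 3.64-fold in mECC and 3.01-fold in HPmECC (edgeR adjusted p = 9.22e-14 and 1.62e-12). Zrsr1 lies inside Commd1 and shares 412 exon bases with it on the opposite strand, so reads there may belong to either gene.

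Gnas averaged 994 ± 14.2, 1399 ± 22.6 and 1574 ± 20.2 CPM. It rose 1.41-fold in mECC and 1.58-fold in HPmECC (edgeR adjusted p = 1.15e-13 and 1.11e-15). The gene has several promoters with different imprints, and counts per gene do not separate them. Impact, a paternally expressed regulator of translation, averaged 34.4 ± 2.17, 27.4 ± 2.58 and 23.2 ± 0.814 CPM. It was 1.26-fold lower in mECC than in normal cells (edgeR adjusted p = 6.59e-05), a direction that turned in TPM, and 1.49-fold lower in HPmECC (edgeR adjusted p = 9.14e-08), a call lost in limma on TPM (adjusted p = 0.0808 and 0.0817 with pseudocounts of 1 and 0.1). Nap1l5, a retrogene of the nucleosome assembly family, had 3, 2 and 1 counts and was not tested.

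The transcript length behind these values could be followed for 14 of the 37 genes, those with at least 50 counts in every library. Counts divided by TPM give the length that the quantification assigned to a gene. For none of the 14 did this length differ by over 25% in any of the 3 comparisons.

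A further 45 genes reported as imprinted in mouse, none of them among the 37, were listed for comparison, and 35 were tested. In mECC 9 were higher and 21 lower than in normal cells (42.1% and 44.2% of all genes), and in HPmECC 11 were higher and 22 lower (43.0% and 43.3% of all genes). Between the lines 11 were higher and 16 lower in HPmECC, beside 33.8% and 34.5% of all genes. Dio3, which ends the Dlk1 and Meg3 domain and encodes a thyroid hormone deiodinase, averaged 18.4 ± 3.44 CPM in normal cells and 0.108 ± 0.0344 CPM in mECC, 163-fold lower (edgeR adjusted p = 5.99e-16). In HPmECC it had 1 count against 1363 in normal cells (ratio between 322 and 71129 at 95% confidence, counting error only). Thus all the tested genes of that domain, paternal or maternal, were lower in both lines. Zdbf2 averaged 9.81 ± 0.566 CPM in normal cells, and neither line had a count of it, at least 334-fold lower in mECC and at least 319.9-fold lower in HPmECC (edgeR adjusted p = 4.8e-12 and 5.38e-12).

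Near the Peg10 and Sgce domain, Tfpi2 had 1 count in mECC against 397 in normal cells (ratio between 97.7 and 21681), and Dlx5 fell 157-fold in mECC, from 71.6 to 0.452 CPM (edgeR adjusted p = 8e-21). In HPmECC, Cobl fell 204-fold from normal cells, from 354 to 1.79 CPM (edgeR adjusted p = 2.97e-23), and Htr2a 18.5-fold, from 19.5 to 1.06 CPM (edgeR adjusted p = 1.03e-15). Each of these genes was also called lower in the other line. Tfpi2 fell 8.52-fold and Dlx5 12.6-fold in HPmECC, and Cobl fell 42.1-fold and Htr2a 5.76-fold in mECC. Between the lines, Dlx5 was 12.5-fold, Pon3 2.95-fold and Herc3 2.09-fold higher in HPmECC, and Cobl was 4.84-fold lower, with edgeR adjusted p values up to 1.04e-08.

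Genes that lay down, keep or read the imprint were also measured. Of 20 listed, 17 were tested, and 8 rose and 6 fell from normal cells to mECC, while 9 rose and 6 fell to HPmECC. Between the lines, 7 were higher and 3 lower in HPmECC. These calls made up 82.4%, 88.2% and 58.8% of the 17 genes, beside 86.3%, 86.4% and 68.3% of all genes. With library totals as the scale the split was 12 higher and 4 lower in mECC and 10 higher and 2 lower in HPmECC, both against normal cells. The share higher among all genes called grew with that scale too. It was 59.1% instead of 48.8% for mECC, and 58.0% instead of 49.8% for HPmECC. Dnmt1, which copies CpG methylation after replication, averaged 123 ± 5.91, 125 ± 1.64 and 191 ± 6.57 CPM, and Uhrf1, which recruits it, 96.9 ± 4.29, 137 ± 7.46 and 198 ± 3.77 CPM. In HPmECC both were higher than in normal cells (1.56-fold and 2.04-fold, edgeR adjusted p = 1.53e-12 and 6.17e-15). Tet1, which oxidises methylated cytosine, averaged 0.219, 0.816 and 2.79 CPM and rose 3.72-fold in mECC and 12.6-fold in HPmECC (edgeR adjusted p = 2.01e-05 and 2.19e-10). Zfp57, which binds TGCCGC, averaged 11.9 ± 1.67, 8.39 ± 0.605 and 8.58 ± 0.241 CPM and was 1.41-fold and 1.38-fold lower in the lines (edgeR adjusted p = 6.31e-05 and 1.35e-04). The part of these genes in the levels of the imprinted genes was not tested.

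To set the 16 loci beside their surroundings, the nearest tested protein-coding gene on each side that was in neither imprinted list was taken, 30 genes in all. In mECC against normal cells 10 of these neighbours were higher and 16 lower, in HPmECC against normal cells 13 and 14, and between the lines 13 and 8. By at least 2-fold, 3 were higher and 6 lower in mECC, 2 and 6 in HPmECC, and 3 and 3 between the lines. Over all genes, 86.3%, 86.4% and 68.3% were called in either direction in the 3 comparisons, and 41.2%, 41.5% and 16.1% by at least 2-fold. Their median absolute log2 fold changes were 0.68, 0.56 and 0.30 in the 3 comparisons, where the imprinted genes had 1.90, 2.24 and 0.90.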

How the data were processed

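Total RNA of 12 libraries was read as mRNA sequencing. Per the submitters' processing notes, reads were trimmed with Trim Galore, aligned with STAR 2.6.1a and quantified with RSEM 1.3.1 on mouse build GRCm38. No source used here names the annotation release or the strand setting. Gene-level estimated counts (RSEM expected counts) were deposited by the authors and rounded to whole numbers before testing. TPM, scaled by the authors for transcript length and library, served for levels, ratios and alternatives. FPKM values were not used. All value columns matched a sample.

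Symbols matched 55144 identifiers, and coordinates came from the GENCODE annotation of GRCm38. Genes passing filterByExpr with a minimum count of 10 were fitted in edgeR 4.0.16 (R 4.3.3) with TMM factors and 1 coefficient per group over all 12 libraries, with Benjamini-Hochberg adjustment over 15283 genes and a threshold of 0.05. The biological coefficient of variation was 4.27%. The procedure was tested on simulated counts. SE values derive from the F statistic. Groups with 0 counts were set to 3 counts over 4 libraries, a bound that leaves out the counting error of the other group. Sums of 1 to 3 counts got exact 95% intervals. Both cover counting error only.

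The genes, lists and tests were chosen with earlier results of these data known. Full values were given for genes reaching 1 TPM in a group mean with a called change of at least 4-fold, and for Usp29, Kcnq1ot1 and Asb4, chosen after their values were seen. Up to 4 other imprinted genes per comparison were named, by largest fold among those called that reached 5 CPM in their higher group. Alternatives were no filter, library totals, median-of-ratios factors, at least 10 CPM in 4 libraries, only the 2 groups compared, a replicate block, DESeq2 1.42.0, limma 3.58.1 on log2(TPM + 1) and log2(TPM + 0.1), and each library left out.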

Additional observations from a re-analysis of the deposited data

Results flagged for a closer look

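In 94 sets of 4 libraries of a group, each for an imprinted gene, the highest and the lowest value were compared with the rest. Chance sets a library apart in about 1 in 20 such sets, and 4 of the 94 had one. Igf2 stood at 27.4 CPM in mECC replicate 4, above 22.3 to 22.5 CPM in the other mECC libraries. Gnas was also highest in mECC replicate 4, at 1433 CPM beside 1387 to 1388 CPM. Asb4 held 0.220 CPM in normal replicate 3, against 0.0459 to 0.0677 CPM in the other normal libraries, which together had few counts. Ndn was lowest in normal replicate 1, at 15.6 CPM beside 16.1 to 16.2 CPM.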

How the results depend on the processing

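Fold changes of the 32 tested genes were compared with 1973 alternative values, of which 1889 kept direction and side of the threshold, 41 lost a call, 11 gained one and 32 changed sign. The sign changes, given as log2 fold changes, touched differences that were small or rested on few counts, and the cause was not tested. In 8 of the 32 the value was also called in its new direction, where 7 had no call before and 1, Ube3a in mECC with library totals, had been called lower (adjusted p = 0.0393 for higher). The other 7 were Ndn in mECC with library totals and with both pseudocounts of TPM (adjusted p = 0.00557, 0.0173 and 0.0237), Cd81 in HPmECC with the same settings (3.11e-05, 0.000936 and 0.000961) and Ube3a in HPmECC with library totals (0.00071). For mECC against normal cells, library totals gave 0.0025 for Cd81, 0.24 for Ndn and 0.082 for Ube3a. TPM with pseudocounts of 1 and 0.1 gave 0.054 and 0.078 for Airn, 0.21 and 0.24 for Ndn, and 0.076 and 0.081 for Impact. Ndn came to 0.032 without the filter and 0.021 in a fit of 2 groups. For HPmECC against normal cells, library totals gave 0.055 for Cdkn1c, 0.16 for Cd81, 0.00054 for Ppp1r9a and 0.15 for Ube3a. TPM gave 0.047 and 0.056 for Cdkn1c, 0.15 and 0.15 for Cd81, and 0.012 and 0.013 for Ube3a, and Cd81 was 0.0028 without the filter. With each library left out in turn, Ndn ranged from -0.062 to 0.035 in mECC against normal cells. H19 ranged from -0.10 to 0.060 and Slc22a18 from -0.80 to 0.79 between the lines. Library totals moved the median of all genes from -0.018 to 0.221 for mECC and from 0.001 to 0.197 for HPmECC against normal cells.

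A minimum of 10 CPM, which tests fewer genes, left, for mECC against normal cells, 8 imprinted genes higher and 9 lower, 5 and 5 by 2-fold, with 1553 and 1994 of all genes. For HPmECC against normal cells it left 8 lower, 5 higher and 5 lower by 2-fold, and 1600 and 2016 of all genes. Between the lines it left 4 higher by 2-fold, with 391 and 715 of all genes. Because fewer genes were tested under this minimum, these counts cannot be set against those of the main fit as a loss of effect. Shares of the genes tested under it are not given, so the counts are not read as a result about the imprinted genes. On log2(TPM + 1), 2300 of all genes were lower by 2-fold in mECC than in normal cells, and between the lines 2 imprinted genes were higher and 3 lower, with 436 and 744 of all genes.

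Same-numbered libraries deviated together weakly at most, with correlations from -0.0273 to 0.08, where differently numbered pairs had -0.0484 to 0.0427. The highest values, 0.08, 0.0504, 0.0497 and 0.0452, belonged to same-numbered pairs, but not every library correlated best with its own number. Adding the replicate block left 12 imprinted genes higher and 16 lower for mECC against normal cells, 14 and 15 for HPmECC, and 18 and 9 between the lines. Over all genes these counts were 6405 and 6718, 6539 and 6607, and 5111 and 5210 in the same order. Among the imprinted genes the block changed only the call of Mest in mECC (edgeR adjusted p = 0.0614). Genes under about 1 CPM rest on few counts per library, and their folds are the least precise.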
